A study of Mus musculus with 6 samples.

Results

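The miR-34 and miR-449 microRNA (miRNA) family was examined in mouse sperm as 8 features of the deposited miRNA table, out of 778 features in all. They were every entry named mmu-miR-34a, mmu-miR-34b, mmu-miR-34c, mmu-miR-449a, mmu-miR-449b or mmu-miR-449c, whichever arm of the hairpin it came from. The rule uses names, with no measured value. Sperm came from the cauda epididymis, where mature sperm are stored, of male C57BL/6 mice aged 8 weeks (the labels also give C57BL/6J). The labels describe 3 samples as normal mice and 3 as stress-induced depressed mice, here called normal and stress samples. The labels give no stress protocol and no test of the depressed state. They do not state either whether a sample is 1 animal or a pool, or whether replicates are different animals; a p-value below therefore measures the spread of these libraries alone, possibly a technical one. The comparison asks whether sperm of stressed males carry a different load of these miRNAs.

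A miRNA hairpin is cut into a 5p and a 3p arm, and the arm that is kept pairs with target messenger RNAs mainly through its seed, bases 2 to 8. miR-34b and miR-34c are cut from 1 shared primary transcript, and the miR-449 hairpins from another within the gene Cdc20b. Both clusters are known from male germ cells in meiosis and after it, and from epithelia with motile cilia, including the efferent ducts that lead from the testis to the epididymis. Male mice that lack both clusters are infertile and make few and abnormal sperm. miR-34a, from a separate gene, is best known as a target of p53 in many tissues. Lower miR-34 and miR-449 levels have been reported elsewhere in sperm of men with early-life adversity and of male mice under social stress.

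The mature sequences show which features can act on the same targets and which can be confused in counting. They are those of the deposited table, with the seed in capitals.
miR-34c-5p: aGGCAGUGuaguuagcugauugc
miR-34b-5p: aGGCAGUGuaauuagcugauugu
miR-34a-5p: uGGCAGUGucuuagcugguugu
miR-449a-5p: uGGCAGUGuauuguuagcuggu
miR-449c-5p: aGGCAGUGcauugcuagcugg
miR-449b: aGGCAGUGuuguuagcuggc
miR-34c-3p: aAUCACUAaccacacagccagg
miR-34b-3p: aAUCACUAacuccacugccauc
The first 6 share the seed GGCAGUG, and the table holds no other feature with that seed. The 3p arms of miR-34b and miR-34c share a different seed, AUCACUA, again with no other feature in the table. Counted from the 5′ end, miR-34b-5p differs from miR-34c-5p by G11A and C23U in 23 bases. miR-34b-3p differs from miR-34c-3p by C11U, A12C, A16U, G21U and G22C. Some counts were not whole: miR-34c-5p and miR-34b-5p both ended in a fraction of 0.5 in normal samples 1 and 3, and miR-34b-5p and miR-449b both did in stress sample 2. Of the 48 values of the family 6 were fractional. How reads that fit several entries were divided is not stated in the labels, so the levels of the 5p arms relative to each other are uncertain.

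The RefSeq hairpins of the miR-34b/c cluster (GRCm38.p6) show the arms in place, here with the mature arms in capitals.
Mir34b: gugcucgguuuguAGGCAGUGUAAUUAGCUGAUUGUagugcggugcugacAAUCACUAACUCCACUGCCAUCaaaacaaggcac
Mir34c: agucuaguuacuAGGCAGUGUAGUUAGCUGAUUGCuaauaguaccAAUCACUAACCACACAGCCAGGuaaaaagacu
Mir34b lies at chr9:51103562-51103645 and Mir34c at chr9:51103034-51103110, both on the minus strand, with 451 bases between them. In the GENCODE M21 annotation both lie in an intron of 1 transcript of Btg4, which is read from the opposite strand. Mir449c (chr13:113035983-113036091), Mir449b (chr13:113037419-113037498) and Mir449a (chr13:113037534-113037624) lie on the plus strand in introns of all 5 overlapping transcripts of Cdc20b. Mir34a (chr4:150068454-150068555, plus strand) overlaps an exon of Gm37795, an unverified transcript. Apart from miR-34c-5p and miR-449b, the features matched a RefSeq mature sequence letter for letter; that of miR-34c-5p is contained in the Mir34c hairpin.

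Depth was 1010203 to 3067208 miRNA reads per sample, the deepest being normal sample 3. The same sample held 2.67 miRNA reads per estimated read of tRNA-derived small RNA, against 0.367 to 0.835 in the other samples. No column copied another (lowest chi-square per degree of freedom between samples 48.4). miRNAs of the X-linked testis cluster, which male germ cells express, were present in every library at 0.629% to 0.840% of the miRNA reads. Markers of the epididymal epithelium were more abundant, at 1.25% to 3.24%.

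miR-34c-5p was the main member. It supplied 78.6% of the 5989 family reads over all samples and ranked between 48 and 70 among the 778 features. In the normal samples 1 to 3 it had 250.5, 547 and 1314.5 reads, which is 231.3, 491.6 and 428.6 RPM (reads per 1000000 miRNA reads of the library). In the stress samples 1 to 3 it had 814, 1178 and 604 reads, or 778.3, 773.6 and 597.9 RPM. As a share of the miRNA reads every stress sample was above every normal sample, and normal sample 1 was the lowest of all.

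Its partner arm miR-34c-3p was much scarcer, with 10, 6 and 69 reads in the normal and 33, 72 and 42 reads in the stress samples. This was 9.23, 5.39 and 22.5 RPM in normal against 31.6, 47.3 and 41.6 in stress samples, again without overlap. Normal samples 1 and 2 rest on few reads here.

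For miR-34b the 3p arm was the abundant one. miR-34b-3p had 60, 104 and 279 reads in the normal samples and 113, 107 and 109 in the stress samples. It stood at 55.4, 93.5 and 91.0 RPM against 108.0, 70.3 and 107.9, and the groups overlapped because stress sample 2 fell between the normal samples. miR-34b-5p had 12.5, 18 and 53.5 reads in normal and 29, 30.5 and 19 in stress samples. Its levels, 11.5, 16.2 and 17.4 against 27.7, 20.03 and 18.8 RPM, did not overlap, but only a narrow gap separated normal sample 3 from stress sample 3.

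The remaining members were near the limit of detection. miR-34a-5p had 2, 0 and 20 reads in normal and 10, 28 and 9 in stress samples; the 0 in normal sample 2 allows up to 2.70 RPM (3 reads, counting error only). By share of the miRNA reads the stress samples (8.91 to 18.4 RPM) lay above the normal ones (0 to 6.52). miR-449a-5p, the main miR-449 of other tissues, had 1, 3 and 16 reads in normal and 9, 13 and 2 in stress samples, with overlapping groups. miR-449c-5p had 1 read in all, in stress sample 1, and miR-449b only the fractional 0.5 read in stress sample 2. miR-449a-5p thus made up 0.735% of the family reads, and 0.777% of the sum of miR-449a-5p and miR-34c-5p on average (0.330% to 1.20%). No 3p arm of miR-34a or miR-449 was listed.

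The order of the levels was the same at the top in every library: miR-34c-5p first and miR-34b-3p second. The listed mature sequences are all 20 to 23 bases long, so levels are compared as RPM with no length scaling. The lengths of the reads themselves were not examined. miR-34c-3p and miR-34b-5p followed, and exchanged places: miR-34b-5p was ahead in normal samples 1 and 2, and miR-34c-3p in normal sample 3 and all 3 stress samples. miR-34a-5p and miR-449a-5p could not be ordered beyond their spread.

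**Figure D1:**
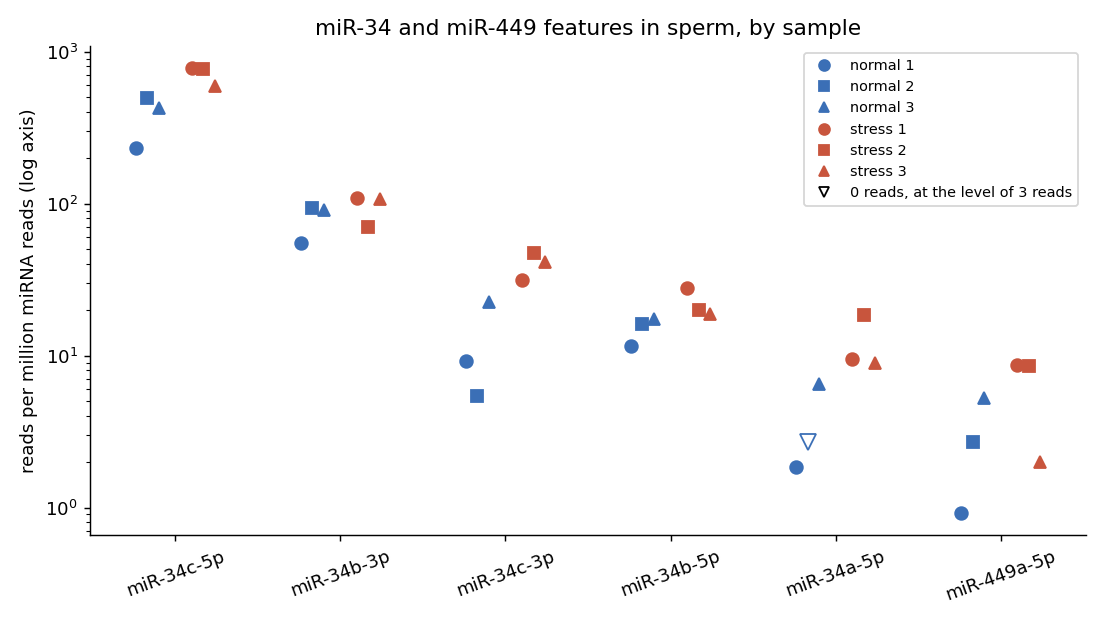
Levels in RPM of the miRNA reads (log axis) of 6 miR-34 and miR-449 features in each normal (blue) and stress (red) sample; marker shapes give the replicate number, and the open triangle is a value of 0 drawn at the level of 3 reads. miR-34c-5p lies between 231.3 and 491.6 in normal and between 597.9 and 778.3 in stress samples, while miR-34b-3p overlaps between the groups.

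Taken as a whole the family held 336, 678 and 1752 reads in the normal and 1009, 1429 and 785 in the stress samples. That was 0.0310%, 0.0609% and 0.0571% of the miRNA reads in normal samples, with Wilson 95% intervals of 0.0279% to 0.0345%, 0.0565% to 0.0657% and 0.0545% to 0.0599%. In stress samples it was 0.0965%, 0.0938% and 0.0777%, the lowest with an interval of 0.0725% to 0.0833%. The means were 0.0497% ± 0.0163 (SD, n = 3) and 0.0893% ± 0.0102, a 1.80-fold difference, and 3 of 3 stress samples exceeded the highest normal one (two-sided exact permutation p = 0.1, the smallest that 3 against 3 allows; 0.23 after Benjamini-Hochberg adjustment over 7 shares). Reads with the seed GGCAGUG stood at 245.6, 510.4 and 457.7 RPM in normal and 825.1, 820.8 and 627.6 in stress samples. Reads with the seed AUCACUA stood at 64.6, 98.9 and 113.5 against 139.6, 117.5 and 149.5, a smaller separation. Intervals and limits cover counting error only.

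The share of the total was also higher in stress sperm for many other miRNAs. Of the 236 miRNAs deep enough to be tested (in at least 3 samples, a level that equals 10 reads in a library of median size), 56.8% lay higher in all 3 stress samples than in any normal sample by share of the miRNA reads; among the 4 tested members, which are both arms of each hairpin of the miR-34b/c cluster, 3 did. Of all 778 listed features 25.4% lay higher in this way, against 4 of the 8 members. Lower in all stress samples were 5.51% of the tested miRNAs and 0 of the 4 tested members. Members of the let-7 family and miR-148a-3p together held 72.9% to 74.6% of the miRNA reads in normal and 59.7% to 61.96% in stress samples. Relative to the reads outside those, the family was at 0.189% ± 0.0592 (SD, n = 3) in normal and 0.229% ± 0.0321 in stress samples, and the groups overlapped (exact permutation p = 0.4).

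The main test used TMM scaling, which sets the bulk of the miRNAs equal between libraries; its factors were 0.683 to 0.860 in normal and 1.24 to 1.38 in stress samples. With it the levels of miR-34c-5p became 298.8, 719.4 and 498.4 CPM (counts per 1000000, with library sizes scaled by TMM) in normal and 603.8, 622.6 and 434.3 CPM in stress samples. The stress samples then lay inside the range of the normal ones. On this scale 0 of the 4 members were free of overlap, where 18.6% of the tested miRNAs lay higher in all stress samples and 20.8% lower. edgeR's quasi-likelihood test gave a log2 fold change of 0.13 ± 0.34 (SE) for stress minus normal (adjusted p = 0.81, 95% interval −0.63 to 0.89), an interval that runs from 0.648 to 1.85 times the normal level. Without normal sample 1 the sign turned to −0.16 (edgeR adjusted p = 0.76; 0.045 to 0.97 over 13 alternatives to this fit).

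miR-34c-3p had the largest positive value of the 4, 0.90 ± 0.44 (adjusted p = 0.18, interval −0.07 to 1.86), with 15.3 ± 9.60 CPM (SD, n = 3) in normal and 30.9 ± 6.81 CPM in stress samples. It passed the threshold of 0.05 when normal sample 3 was left out, at 1.66 (edgeR adjusted p = 0.033; 0.022 to 0.95 over 13 alternatives to this fit). miR-34b-3p was at −0.52 ± 0.31 (adjusted p = 0.26, interval −1.21 to 0.17), with 104.8 ± 32.5 CPM in normal and 72.9 ± 14.4 CPM in stress samples. Without normal sample 2 it was at −0.28 and without normal sample 1 at −0.75 (edgeR adjusted p = 0.52 and 0.14). miR-34b-5p was at −0.20 ± 0.37 (adjusted p = 0.74), and between −0.38 without normal sample 1 and −0.05 without normal sample 2. In edgeR 0 of the 4 tested members passed, 0 had an unadjusted p under 0.05, and 12.7% of all 236 tested miRNAs passed, 2.54% higher and 10.2% lower. DESeq2 called 0 of 4 beside 19.9% of all, RLE scaling 0 beside 18.6%, and the library size without let-7 and miR-148a-3p 0 beside 14.0%. The median of the 4 members was −0.04, beside 0.00 for all tested miRNAs. miR-34a-5p and the miR-449 features were too low for this test in the full set of samples. With no filter on low counts, where 6.32% of 775 miRNAs passed and 0 of 7 members, miR-34a-5p was at 1.21 ± 0.70 and miR-449a-5p at 0.30 ± 0.82 (edgeR adjusted p = 0.43 and 0.87). miR-34a-5p also passed the filter when normal sample 1, 2 or 3 or stress sample 3 was left out, at 0.95, 0.79, 2.90 and 1.38 (edgeR adjusted p = 0.46, 0.45, 0.096 and 0.35). It passed there only through stress samples 1 and 2 (9.56 and 18.4 RPM), with the normal samples at 0 to 6.52 RPM. The filter thus favoured a positive value, and these 4 fits cannot be read as a difference.

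**Figure D2:**
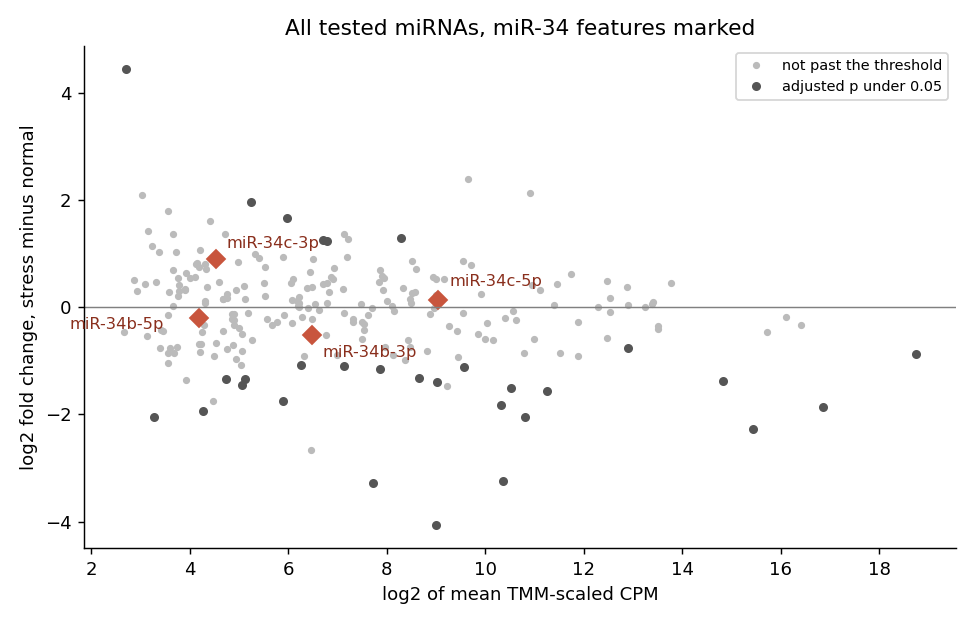
Log2 fold change (stress minus normal, TMM scaling) against the log2 of the mean TMM-scaled CPM for 236 tested miRNAs, one point each; dark points passed the adjusted p of 0.05 in edgeR. The 4 miR-34 features (red diamonds) are all among the points that did not pass, miR-34c-3p highest at 0.90 and miR-34b-3p lowest at −0.52.

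What is called for this family depended on what the reads were scaled to. With the plain total of the miRNA table as library size, miR-34c-5p was at 0.90 ± 0.33 and rose past the threshold (edgeR adjusted p = 0.045), as did miR-34c-3p at 1.59 ± 0.48 (adjusted p = 0.022). miR-34b-5p, at 0.53 ± 0.38, and miR-34b-3p, at 0.25 ± 0.32, did not pass (adjusted p = 0.25 and 0.56). So 2 of 4 members were called higher where 40.7% of all tested miRNAs were and 4.24% were lower (44.9% in all), with the median of all tested miRNAs at 0.76 and that of the 4 members at 0.72. Relative to that shift of 0.76, miR-34c-5p was at 0.14, miR-34c-3p at 0.83, miR-34b-5p at −0.23 and miR-34b-3p at −0.51. The call of miR-34c-5p with this scaling was kept when normal sample 2 was left out (adjusted p = 0.038). It was lost without normal sample 1 or 3 or stress sample 1, 2 or 3 (adjusted p = 0.087, 0.052, 0.12, 0.13 and 0.082). That of miR-34c-3p was lost without normal sample 2 or stress sample 2 or 3 (adjusted p = 0.0503, 0.074 and 0.058), and its value ran from 1.27 without normal sample 2 to 2.45 without normal sample 3.

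Reads outside the miRNA class gave a further yardstick. Per 100000 reads of PIWI-interacting RNA (piRNA), which derives largely from germ cells, miR-34c-5p was at 340.4, 717.9 and 1525 in normal and 806.6, 1543 and 831.4 in stress samples. Normal sample 3 and stress sample 2 were high together, and the groups overlapped. edgeR scaled to the piRNA reads gave 0.30 ± 0.70 (adjusted p = 0.95), with 0 of 4 members and 2.54% of all tested miRNAs past the threshold. Scaled to the sum of the miRNA, piRNA and tRNA-fragment tables, miR-34c-5p was at 0.44 ± 0.63 (adjusted p = 0.84), again with 0 of 4 members and 2.54% of all. Normal sample 3, the library with the high ratio of miRNA to tRNA-fragment reads, was the highest normal sample on both of these scales. In such bulk samples fewer cells of a type and less RNA per cell cannot be told apart.

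**Figure D3:**
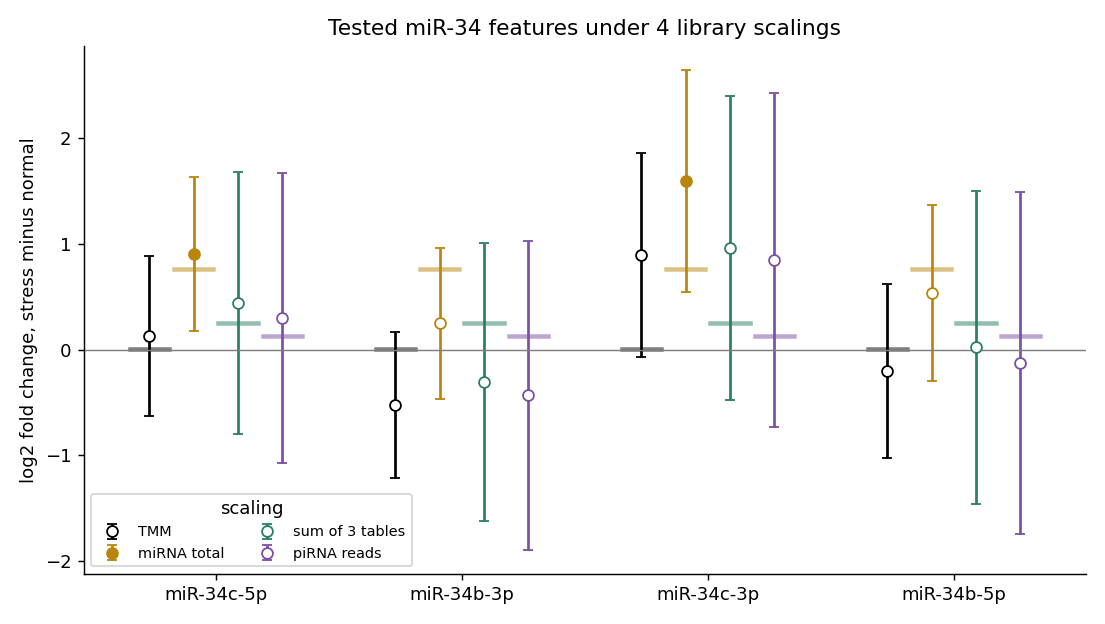
Log2 fold change (stress minus normal) of the 4 tested miR-34 features under TMM, the miRNA total, the sum of the 3 tables and the piRNA reads, with 95% intervals; filled points passed the adjusted p of 0.05 in edgeR, and pale horizontal bars mark the median of all 236 tested miRNAs under the same scaling. Only the miRNA total gives filled points, for miR-34c-5p at 0.90 and miR-34c-3p at 1.59, where the median of all miRNAs is itself at 0.76.

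Ratios between members of 1 library need no scaling. The arm balance was opposite in the neighbouring hairpins: the 3p arm gave 82.4% of miR-34b reads on average over the 6 samples (77.8% to 85.2%), but 4.34% of miR-34c reads (1.08% to 6.50%). These ranges were far apart in every library. Arm balance did not separate the groups. The 3p share of miR-34b was 84.0% ± 1.24 (SD, n = 3) in normal samples and 80.9% ± 3.83 with stress (exact permutation p = 0.3). That of miR-34c was 3.84%, 1.08% and 4.99% in normal and 3.90%, 5.76% and 6.50% with stress (exact permutation p = 0.2), where normal sample 2 rests on 6 reads and has a Wilson interval of 0.498% to 2.35%.

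The balance between the hairpins did separate the samples. miR-34b supplied 21.8%, 18.1% and 19.4% of the miR-34b and miR-34c reads in the normal samples and 14.4%, 9.91% and 16.5% in the stress samples. Each stress sample was below each normal sample, with means of 19.7% ± 1.88 (SD, n = 3) and 13.6% ± 3.38 (exact permutation p = 0.1, the smallest possible; 0.23 adjusted over 7 shares). The Wilson interval of stress sample 3 (14.1% to 19.3%) overlapped those of all 3 normal samples, so these gaps are within counting error. That of stress sample 1 (12.3% to 16.7%) overlapped that of normal sample 2 (15.4% to 21.2%). Only the interval of stress sample 2 (8.48% to 11.6%) lay below every normal one. Within each seed the share of miR-34b was lower with stress on average. miR-34b-3p made up 85.7%, 94.5% and 80.2% of the reads with the seed AUCACUA in normal samples and 77.4%, 59.8% and 72.2% with stress (means 86.8% ± 7.25 and 69.8% ± 9.05, exact permutation p = 0.1, or 0.23 adjusted). The Wilson intervals of normal samples 1 (75.7% to 92.1%) and 3 (75.7% to 84.0%) overlapped those of stress samples 1 (70.0% to 83.4%) and 3 (64.6% to 78.7%). Among the 5p arms, where counts can be shared, miR-34b-5p was at 3.95% ± 0.784 in normal and 3.005% ± 0.460 in stress samples, with overlap (exact permutation p = 0.2).

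**Figure D4:**
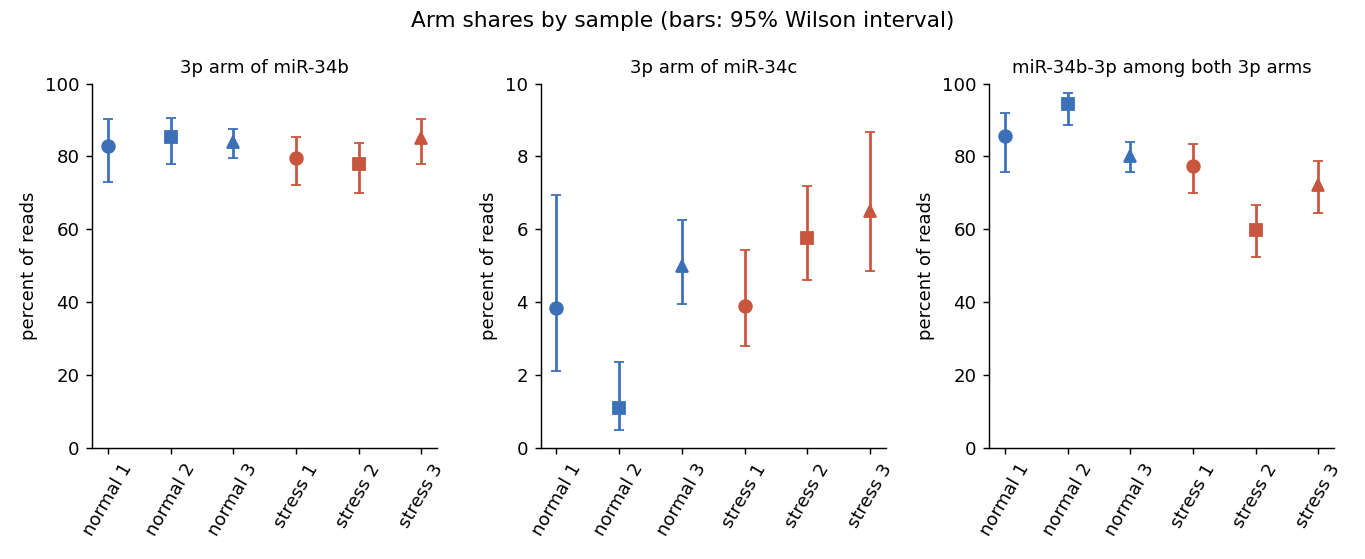
Percent of reads from the 3p arm of miR-34b (left) and of miR-34c (middle, axis to 10%), and percent of miR-34b-3p among the reads of both 3p arms (right), per normal (blue) and stress (red) sample with 95% Wilson intervals. The 3p arm supplies 77.8% to 85.2% of miR-34b but 1.08% to 6.50% of miR-34c, and on the right the normal samples (80.2% to 94.5%) lie above the stress samples (59.8% to 77.4%).

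Summed over each list, other miRNAs of male germ cells overlapped between the groups as shares of the miRNA reads. The X-linked cluster, with 27 features in the table, held 0.682%, 0.840% and 0.629% of the miRNA reads in normal and 0.717%, 0.786% and 0.648% in stress samples. Of its 15 tested features, beside 10.2% lower and 2.54% higher among all tested miRNAs, 3 fell and 0 rose with TMM scaling (miR-871-3p at −1.40 ± 0.31, miR-743b-5p at −1.34 ± 0.36 and the joint miR-465a/b/c-3p feature at −1.31 ± 0.38, edgeR adjusted p = 0.016, 0.032 and 0.044), with a median of −0.59. Scaled to the miRNA total the median turned to 0.18, and 4 other features of the cluster rose and 0 fell, where 40.7% of all tested miRNAs rose; the 3 named stayed negative (−0.61, −0.59 and −0.56) and did not pass. The sum of the cluster rested largely on miR-881-3p, at 3129 to 4660 RPM in normal and 2900 to 3743 RPM in stress samples. As shares, miR-741-3p (59.3 to 79.1 against 102.4 to 150.1 RPM) and miR-465c-5p (681.3 to 975.9 against 1082 to 1414 RPM) were among those higher in all stress samples. miR-871-3p (429.7 to 702.8 against 322.4 to 405.4 RPM) was lower in all of them. Of all tested miRNAs 56.8% lay higher and 5.51% lower in this way. The ratio of the family to that cluster did not overlap between the groups, at 11.9 to 13.4 family reads per 100 cluster reads in stress sperm beside 4.53 to 9.08 in normal sperm. How many other miRNAs separate the groups by such a ratio was not tested. A second germ-cell list held 0.327% to 0.484% of the miRNA reads in normal and 0.413% to 0.471% in stress samples. Of its 5 tested features, with a median of −1.05, it had 2 that fell, miR-184-3p (−1.82 ± 0.30, edgeR adjusted p = 0.0044) and miR-122-5p (−4.07 ± 0.99, adjusted p = 0.022), the latter also a liver miRNA. Scaled to the miRNA total both still fell, and 2 others of that list, miR-24-3p and miR-191-5p, rose. As shares, miR-184-3p was at 1140 to 1778 RPM in normal and 694.1 to 748.4 RPM in stress samples. miR-191-5p was at 1056 to 1784 and 2685 to 3130 RPM, so the sum of that list joins features that moved in opposite directions. Per 100 reads of that list there were 9.47 to 16.3 family reads in normal and 16.5 to 22.7 in stress samples, a narrow gap without overlap. miR-122-5p ran from 106.9 to 1651 RPM within the normal samples.

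As shares of the miRNA reads, 3 lists of markers of other cells separated the groups as the family did. By that measure 56.8% of all 236 tested miRNAs lay higher in all stress samples. The epithelial list, which the lining of the epididymis expresses (miR-200 family, miR-141, miR-429, miR-203 and miR-205, all 7 names present), held 1.25% to 1.77% of the miRNA reads in normal and 2.95% to 3.24% in stress samples. The list for stroma, smooth muscle and endothelium (6 of 6 names present) held 0.268% to 0.496% and 0.934% to 1.09%, and the leukocyte list (5 of 5 names present) 0.0359% to 0.0814% and 0.135% to 0.189%. None of these groups overlapped, and no feature of the 3 lists was at 0 in all normal samples. With TMM scaling 0 of 9 epithelial, 2 of 8 stromal and 0 of 5 leukocyte features rose and 0 fell; among all tested miRNAs 2.54% rose. Scaled to the miRNA total 7, 6 and 3 of them rose, where 40.7% of all did. miR-200b-3p, the most abundant epithelial marker, was at 0.07 ± 0.20 (edgeR adjusted p = 0.85). The sum of the epithelial list rested largely on miR-200b-3p (6611 to 9157 RPM in normal, 12833 to 15638 RPM in stress samples) and miR-200c-3p (3505 to 5998 and 10512 to 11597 RPM). With TMM scaling miR-200a-5p and miR-200b-5p were negative (−0.60 and −0.31, edgeR adjusted p = 0.18 and 0.46). As shares these arms and miR-141-3p overlapped between the groups. miR-145a-5p and the joint miR-199a/b-3p feature of the stromal list rose (1.96 ± 0.35 and 1.29 ± 0.30, edgeR adjusted p = 0.0072 and 0.017). The sum of the stromal list rested largely on another feature, miR-143-3p, at 2207 to 4416 RPM in normal and 7840 to 9380 RPM in stress samples. With TMM scaling miR-143-3p was at 0.49 ± 0.28 and did not pass (edgeR adjusted p = 0.24). miR-145a-5p was at 9.23 to 16.2 RPM in normal and 77.2 to 78.8 RPM in stress samples. The leukocyte miR-146a-5p, the most abundant of its list, was at 0.87 ± 0.29 (adjusted p = 0.063). Of that list miR-150-5p and miR-223-3p were also positive (1.27 and 2.09, edgeR adjusted p = 0.11 and 0.054). miR-142a-3p and miR-223-5p were negative (−0.76 and −0.69, edgeR adjusted p = 0.33 for both) and overlapped between the groups as shares of the miRNA reads. The red blood cell list overlapped between the groups (0.0341% to 0.102% in normal and 0.0268% to 0.0817% in stress samples), with 0 of 3 tested features called and miR-486a/b-5p at −1.47 ± 0.53 (adjusted p = 0.084).

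The ratio of family to list reads differed by list. Per 100 epithelial reads there were 1.81, 4.87 and 3.22 family reads in normal and 2.97, 3.18 and 2.53 in stress samples. Per 100 stromal reads there were 11.5, 13.2 and 11.5 in normal and 10.3, 9.44 and 7.14 in stress samples, lower in all 3 stress samples than in any normal one. Per 100 leukocyte reads there were 70.1 to 169.5 in normal and 41.0 to 71.2 in stress samples, and per 100 red blood cell reads 30.4 to 167.7 and 118.0 to 289.7. The epithelial, leukocyte and red blood cell ratios overlapped between the groups. The part of RNA from such cells in the levels of the family was not tested.

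**Figure D5:**
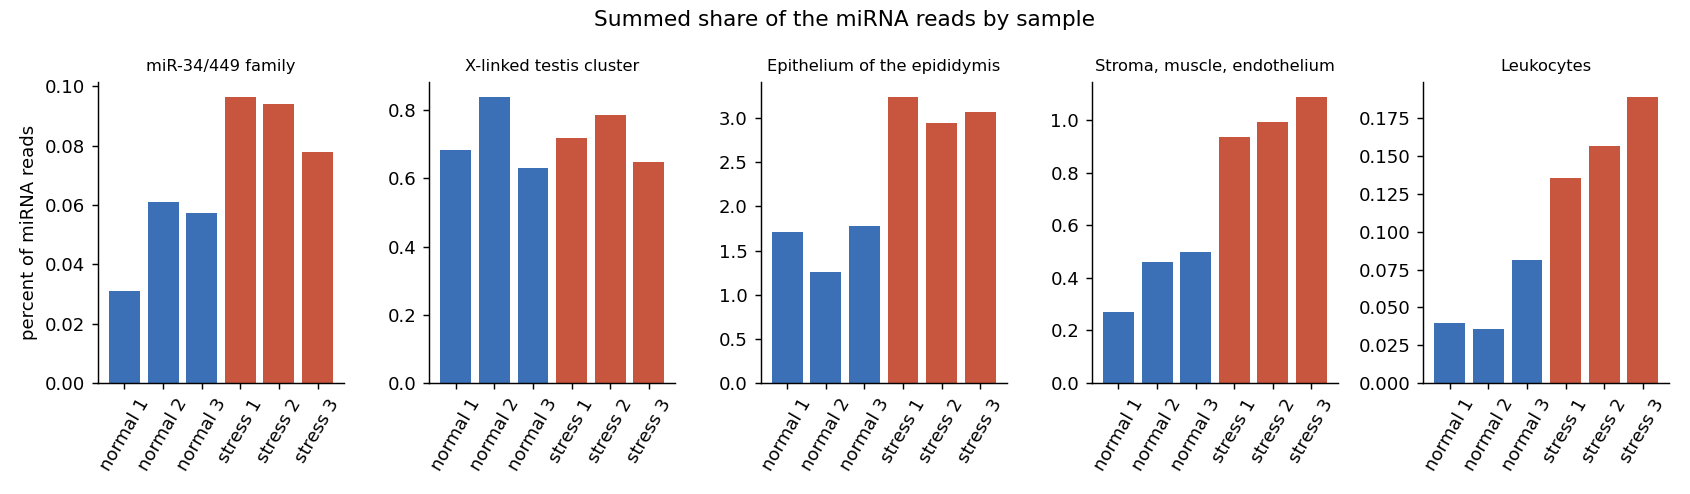
Percent of the miRNA reads held by the miR-34 and miR-449 family and by 4 lists of marker miRNAs in each normal (blue) and stress (red) sample, each panel with its own axis from 0. The family (0.0310% to 0.0609% in normal, 0.0777% to 0.0965% in stress samples) separates the groups as the epithelial, stromal and leukocyte lists do, while the sum of the X-linked testis cluster does not. The second germ-cell list and the red blood cell list are not drawn, and both overlapped between the groups. By share of the miRNA reads 56.8% of all tested miRNAs lay higher in all stress samples, and single features of the X-linked cluster were among them.

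The 5 miRNAs whose TMM-scaled profile over the 6 samples lay nearest to that of miR-34c-5p, out of 113 with a mean of at least 100 CPM outside the family, were miR-101a-3p, miR-30e-3p, miR-30a-3p, miR-192-5p and miR-379-5p. Their root mean square difference from it on the centred log2 scale was 0.10, 0.11, 0.15, 0.16 and 0.21, beside a median of 0.53 over the 113. None of these 5 passed the threshold in edgeR (log2 fold changes of −0.12 to 0.27, adjusted p = 0.61 to 0.97). That follows from the choice, since they were picked for likeness to miR-34c-5p, itself at 0.13, over the same samples. miR-101a-3p was, like miR-34c-5p, lowest in normal sample 1, at 210.4 CPM, with 447.2 and 339.9 CPM in the other normal samples and 432.5, 480.4 and 287.6 CPM in the stress samples; its highest sample was stress 2, that of miR-34c-5p normal 2. The other arms of its own cluster lay farther from it than these 5, which were picked as the nearest. miR-34b-5p differed by 0.29, miR-34b-3p by 0.46 and miR-34c-3p by 0.82, ranks 17, 72 and 178 of 235 tested miRNAs. miR-34b-5p (12.5 to 53.5 reads) and miR-34c-3p (6 to 72 reads) were below 100 CPM, and counting error adds to their distances. The SD within groups was 0.49 on the log2 scale for miR-34c-5p and 0.61 for miR-34c-3p, above the median of 0.37 over all tested miRNAs, and 0.33 and 0.39 for miR-34b-5p and miR-34b-3p.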

How the data were processed

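Small RNA of 3 normal and 3 stress samples was compared, grouped by the disease-state labels. RNA was extracted with TRIzol, per the labels' protocols, and sequenced at BGI, per the series design. Bowtie was used, per the submitters' processing notes; no source used here names its version, the genome build or how reads were counted. The miRNA table the authors deposited holds expected counts: 92.0% of its values were whole within 0.001. The piRNA and tRNA-fragment tables the authors deposited hold RPM, scaled within each table, and served only as library sizes. Reads were recovered from the piRNA steps (100% whole multiples; 72652 to 100913 reads per sample) and estimated from 22 to 26 low values per sample for tRNA fragments (1149648 to 2756214 reads).

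Expected counts were rounded and fitted with edgeR 4.0.16 in R 4.3.3 (filterByExpr, minimum count 10, TMM, two-sided glmQLFTest, Benjamini-Hochberg over 236 miRNAs, threshold 0.05); the script was tested on simulated data. SE is the log2 fold change divided by the square root of F. Shares used deposited counts and exact permutation tests. Alternatives were RLE, other library sizes, DESeq2 1.42.0, no filter, a replicate block and leaving out samples. Every listed member is named, with the nearest 5 profiles to miR-34c-5p (prior count 2), and of each marker list the called features (up to 4) or else the most abundant. Members and lists were chosen with earlier results of these data known. Shares of single arms within a seed and of miR-449a were added after seeing the data.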

Additional observations from a re-analysis of the deposited data

How the results depend on the processing

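With TMM scaling 30 of 236 miRNAs passed and 0 of 4 members. Scaled to the miRNA total the counts were 106 (96 higher, 10 lower) and 2 members, against 6 higher and 24 lower with TMM; 6 passed (3 in each direction), and 0 members, when scaled to piRNA reads or to the sum of all deposited reads. DESeq2 called 47, RLE 44 (16 higher, 28 lower) and no filter on low counts 49, each with 0 members. Leaving out single samples gave 17 (without stress replicate 3) to 55 (without normal replicate 3) calls and 0 to 1 member, and, scaled to the miRNA total, 58 to 107 calls (92, 95 and 107 without normal replicate 1, 2 and 3, and 74, 61 and 58 without stress replicate 1, 2 and 3) and 0 to 1 member. miR-34c-5p ranged from −0.16 to 0.49 when single samples were left out, and from 0.64 to 1.12 with the miRNA total, beside 0.90 with all samples. Scaled to the miRNA total miR-34b-3p turned from −0.52 to 0.25 (0.046, 0.36, 0.35, 0.15, 0.43 and 0.15 without each sample, in the same order) and miR-34b-5p from −0.20 to 0.53 (0.37, 0.57, 0.69, 0.34, 0.62 and 0.63); miR-34b-5p was at 0.020 when scaled to the sum of all deposited reads. Scaled to the miRNA reads without let-7 and miR-148a-3p, added after seeing the data as were the combined settings, 33 passed (16 higher, 17 lower), 0 members, and miR-34c-5p was at 0.33 (adjusted p = 0.48 in edgeR). The cause of these shifts was not tested beyond the scaling itself.

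The differences of the 4 planned shares kept their sign under every alternative run. Without single samples the family's difference was 0.0303 to 0.0455 percentage points, that of miR-34b within the cluster −7.61 to −4.29, and the 3p share differences 0.973 to 2.92 for miR-34c and −5.27 to −1.60 for miR-34b. Replicate numbers did not pair the samples (correlation of deviations 0.11, −0.21 and 0.12 for numbers 1 to 3, and not every sample correlated best with its own number); with the replicate block 28 miRNAs and 0 members passed, and miR-34c-5p was at 0.19 (adjusted p = 0.71 in edgeR). The low counts of miR-34a, miR-449 and miR-34c-3p limit what could be detected.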
